A study of Homo sapiens with 6 samples.

Results

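The G2/M and mitosis genes are 37 genes, fixed by name, whose products drive a cell from the end of DNA replication through chromosome segregation to the division of the cytoplasm. They were found by symbol in an RNA-seq table of 11079 genes, and all 37 were among the 10008 genes that were tested, those whose mean level over the 6 libraries reached 1 FPKM (fragments per kilobase of transcript, scaled to library size). The cells were T24, an established human bladder cancer line, and every library came from cells that had taken up a lentivirus and survived puromycin. The shControl group (3 libraries, genotype WT in the labels) carried a control short hairpin RNA, and the shBLACAT3 group (3 libraries, BLACAT3 knockdown) a short hairpin RNA against the long noncoding RNA BLACAT3. The labels give 1 name for the knockdown hairpin and no hairpin sequence, and do not state whether each replicate was a culture of its own. A p-value here therefore speaks only of the variation among these 6 libraries, part or all of which may be technical. The level of the targeted RNA was not analysed here.

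The listed values summed to between 211958 and 226953 FPKM per library. The read depth behind them is unknown, because FPKM holds no read counts. Of 17 urothelial and epithelial markers, 5 (KRT7, KRT8, KRT18, PPARG and FOXA1) were in the table, with summed levels of 180 to 211 FPKM in shControl and 124 to 142 in shBLACAT3 libraries, a difference whose part in the results below was not tested. The uroplakin genes UPK1A, UPK1B, UPK2 and UPK3A, which define the urothelium, were not among the genes listed. Of 8 leukocyte markers 1, CD68, was listed, at 0.0038 to 1.21 FPKM, and of 5 endothelial markers 0 were.

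Entry into mitosis is driven by the kinase CDK1 bound to cyclin B, which CDC25 phosphatases switch on. Polo-like and Aurora kinases then build the spindle, kinetochores tie chromosomes to its microtubules, and a checkpoint holds back the anaphase-promoting complex until every chromosome is attached. These genes are transcribed together late in the cell cycle. The MuvB complex, with B-MYB and FOXM1, acts on many of them through a short promoter element, the cell cycle genes homology region (CHR), often near CCAAT boxes, which bind the factor NF-Y. In bulk RNA, more cells in G2 and mitosis and more of these transcripts per cell cannot be told apart.

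Promoters are shown for 6 members because the CHR and CCAAT letters are a feature that the choice of genes did not use. PLK1 is the member that passed the test, CDK1, CCNB1 and CCNB2 form the central kinase and its cyclins, and CENPF and HMMR are members whose knockdown libraries differed among themselves. Other members, such as CENPE and ASPM, differed more. All 6 promoters shown hold both CHR and CCAAT letters, which not every member does. Each line gives the 170 bases before the RefSeq transcript start (GRCh38.p14, plus strand in each case), at chr16:23678719-23678888 for PLK1, chr10:60778161-60778330 for CDK1, chr5:69166980-69167149 for CCNB1, chr15:59104976-59105145 for CCNB2, chr1:214603025-214603194 for CENPF and chr5:163460462-163460631 for HMMR. Capitals mark the CHR letters TTTGAA or TTTAAA and the CCAAT letters, on either strand (TTCAAA and ATTGG on the other one).
PLK1: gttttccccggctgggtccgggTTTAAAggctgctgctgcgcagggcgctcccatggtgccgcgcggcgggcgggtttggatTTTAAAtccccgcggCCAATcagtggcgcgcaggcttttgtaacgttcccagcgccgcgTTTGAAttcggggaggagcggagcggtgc
CDK1: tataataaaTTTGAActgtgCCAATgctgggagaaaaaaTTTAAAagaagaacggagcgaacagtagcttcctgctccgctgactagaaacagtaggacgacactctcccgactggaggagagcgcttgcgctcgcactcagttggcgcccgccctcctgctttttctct
CCNB1: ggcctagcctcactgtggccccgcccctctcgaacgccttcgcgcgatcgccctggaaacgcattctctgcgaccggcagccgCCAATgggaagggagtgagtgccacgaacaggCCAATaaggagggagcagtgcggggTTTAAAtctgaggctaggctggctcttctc
CCNB2: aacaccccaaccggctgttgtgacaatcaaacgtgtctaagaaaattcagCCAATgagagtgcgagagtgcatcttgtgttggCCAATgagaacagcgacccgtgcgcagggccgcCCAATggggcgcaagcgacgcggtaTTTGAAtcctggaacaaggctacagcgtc
CENPF: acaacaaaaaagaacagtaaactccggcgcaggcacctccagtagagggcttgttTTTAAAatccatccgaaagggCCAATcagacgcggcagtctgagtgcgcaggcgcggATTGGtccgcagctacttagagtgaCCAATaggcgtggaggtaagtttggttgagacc
HMMR: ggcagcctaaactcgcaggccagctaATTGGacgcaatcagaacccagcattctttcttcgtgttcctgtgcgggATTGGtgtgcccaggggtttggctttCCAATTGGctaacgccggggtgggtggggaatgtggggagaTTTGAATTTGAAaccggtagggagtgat

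In the bases shown, the CHR letters began 148, 88 and 29 bases before the start in PLK1, 29 in CCNB2, 30 in CCNB1, and 28 and 22 in HMMR. In CDK1 they began 161 and 131 bases before the start used by RefSeq, and in CENPF 115. Outside the bases shown, CCNB2 had a further match 193 bases before the start and CENPF a further match after it. RefSeq promoters (300 bases, from 250 before to 50 after the start) were matched for 31 of the 37 members. TTTGAA or TTTAAA stood on either strand in 26 of the 31 (83.9%), against 1237 of the 8223 tested genes with a promoter (15.0%) and 5 of 42 G1/S genes (11.9%). CCAAT stood in 23 of 31 members (74.2%), in 37.6% of tested genes and in 23 of the 42 G1/S genes (54.8%). Both letters stood in 20 members (64.5%), in 6.49% of tested genes and in 2 of the G1/S genes (4.76%). The CHR letters lay between 100 bases before and 50 after the start in 24 members. The 5 members without the letters anywhere in the 300 bases were CCNA2, CDC25B, CDC25C, AURKB and BUB1. This covers only the letters TTTGAA and TTTAAA around the RefSeq start. A match of letters is a description of the window and not a binding site, and TTTAAA reads the same on both strands. The members without a matched promoter were AURKA, TTK, UBE2C, TPX2, BIRC5 and FOXM1.

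Of the 37 genes, PLK1 rose in shBLACAT3 cells and 0 fell (limma, adjusted p under 0.05 over all tested genes), beside 9.37% of all tested genes called, 2.57% higher and 6.8% lower. The mean was higher in shBLACAT3 for 26 members (70.3%) and lower for 11, while it was higher in 49.4% of all tested genes. The median log2 fold change on the log2(FPKM + 1) scale was 0.16 over the members and -0.0025 over all tested genes. It was 0.09 over the members without shBLACAT3 replicate 2. At an unadjusted p under 0.05 stood 8 members (21.6%), beside 25.6% of tested genes. The libraries of the groups did not overlap in 11 members (29.7%), 9 of them higher and 2 lower, beside 32.8% of tested genes (14.1% higher and 18.6% lower). Mean levels over the 6 libraries ran from 8.35 FPKM for CENPE to 124 for TPX2, with a median of 28.4, against 7.15 over all tested genes.

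The control libraries lay close together and the knockdown libraries did not. The highest over the lowest library had a median of 1.09-fold over the members in shControl and 1.29-fold in shBLACAT3, while over all tested genes it was 1.14-fold and 1.23-fold. It was above 1.5-fold for 2 members in shControl, AURKA and FOXM1, and for 10 in shBLACAT3. In 20 of the 37 members both shBLACAT3 replicates 1 and 2 lay above all controls, as they did in 24.6% of tested genes. In 11 of the 37, all among these 20, replicate 3 did not, as in 10.4% of tested genes. Both percentages are of all tested genes, so the 10.4% is to be set beside 11 of 37 and not beside 11 of 20. Replicate 2 was the highest knockdown library in 23 members and replicate 3 the lowest in 20, where 36.4% and 36.3% of tested genes had these libraries highest and lowest. In the other direction, replicates 1 and 2 both lay below all controls in 5 members (CCNB1, CDC25B, AURKB, UBE2C and PTTG1). The share of tested genes for that count was not taken. Each taken alone, replicates 1, 2 and 3 lay below all controls in 10, 6 and 11 members, beside 33.9%, 38.6% and 37.3% of tested genes.

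**Figure D1:**
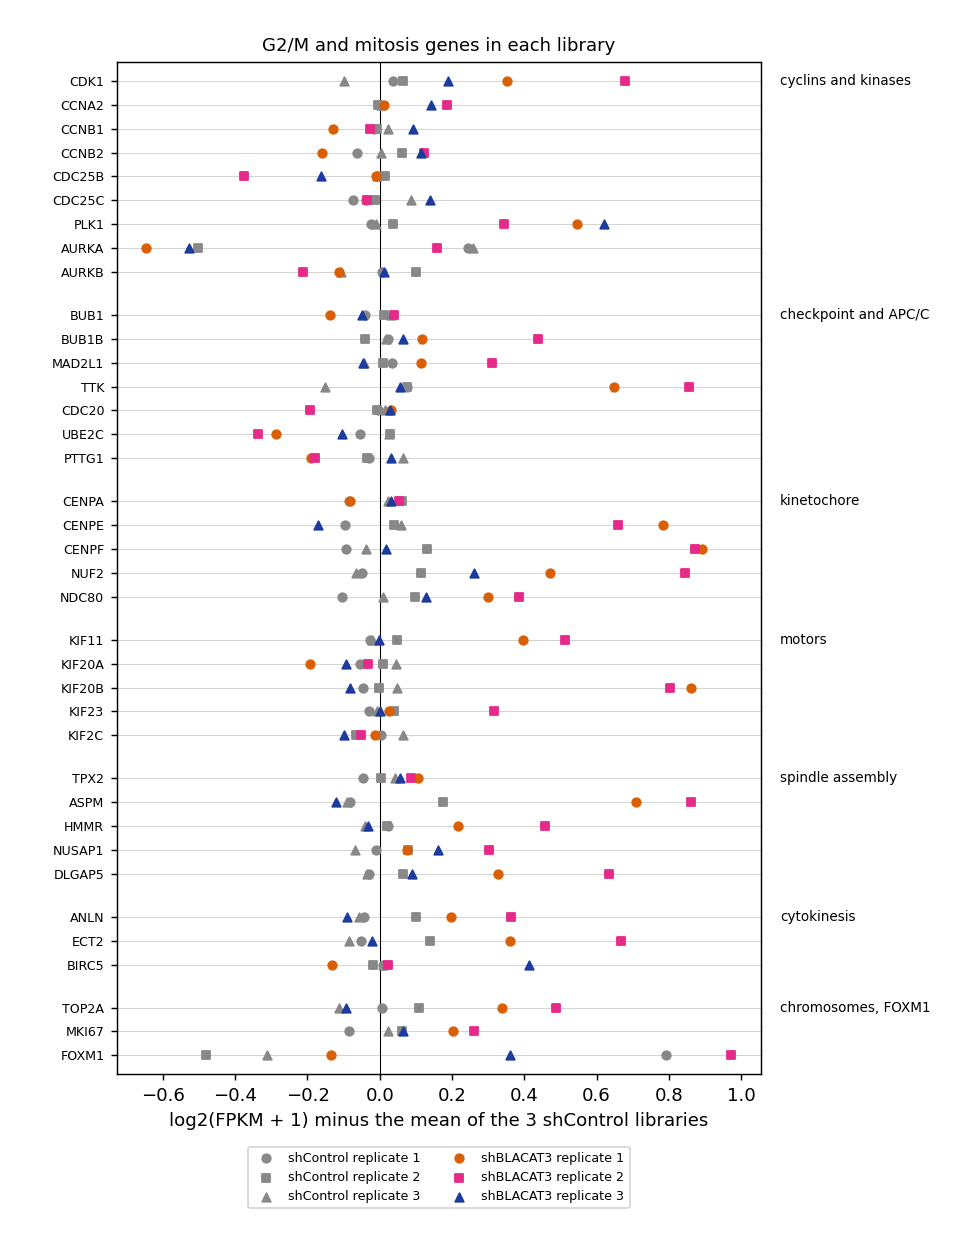
Each row is 1 of the 37 genes by class, and each point 1 library, as log2(FPKM + 1) minus the mean of the 3 shControl libraries (grey; shBLACAT3 in colour). In PLK1 the 3 knockdown points lie to the right of all controls, while in CENPE, CENPF, KIF20B and ASPM replicates 1 and 2 lie far to the right and replicate 3 among or below the controls.

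Among the 9 cyclins, phosphatases and kinases, PLK1 rose and the others did not pass. PLK1, the polo-like kinase of centrosome maturation, kinetochores and mitotic exit, stood at 14.3, 15.0 and 14.5 FPKM in the shControl libraries and at 21.8, 18.8 and 23.0 in the shBLACAT3 libraries. All 3 knockdown libraries were above all controls, and the means, 14.6 ± 0.36 and 21.2 ± 2.17 FPKM (SD, n = 3 per group), differed 1.45-fold. Its log2 fold change was 0.50 (SE 0.08, adjusted p 0.016), and the adjusted p ran from 0.007 to 0.074 over the alternatives. The call was lost without shControl replicate 1, 2 or 3 (adjusted p 0.074, 0.056 and 0.066) and without shBLACAT3 replicate 1 (0.058). It was also lost in limma with the replicate number added as a block (adjusted p 0.051).

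CDK1, the kinase that triggers mitosis, was at 44.9, 45.8 and 40.8 FPKM in shControl and at 56.2, 70.6 and 50.03 in shBLACAT3 libraries. The groups did not overlap, yet the knockdown libraries spread by 1.41-fold and the difference did not pass (log2 fold change 0.41, SE 0.13, adjusted p 0.11). Cyclin B1 (CCNB1), its partner at mitotic entry and the most abundant of the class, stood at 107, 107 and 110 FPKM in shControl and at 98.6, 106 and 115 in shBLACAT3. Its knockdown libraries lay on both sides of the controls, replicates 1 and 2 below all of them and replicate 3 above. The log2 fold change in limma was -0.02 (SE 0.07, adjusted p 0.87), and its sign turned under quantile normalization (0.04).

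The remaining cyclins, CCNA2 (cyclin A2, of S phase and mitotic entry) and CCNB2, had means 1.08-fold and 1.02-fold those of the controls. CDC25B and CDC25C, which remove the inhibitory phosphates from CDK1, had ratios of 0.88 and 1.02. The CDC25B groups did not overlap, with 25.7, 26.0 and 25.7 FPKM in shControl and 25.6, 19.6 and 22.9 in shBLACAT3 libraries, but replicate 1 lay just under the controls (adjusted p 0.28). AURKB, the kinase of the chromosomal passenger complex, had a ratio of 0.93. AURKA, the centrosomal Aurora kinase, took 2 levels within both groups, with 63.4, 37.3 and 63.9 FPKM in shControl and 33.7, 59.6 and 36.7 in shBLACAT3 libraries. With that spread its ratio of 0.79 did not pass (adjusted p 0.49). AURKA, CDC20, UBE2C and PTTG1 have similar pseudogenes or retrocopies, so their values are uncertain. How fragments shared with such copies were assigned was not tested.

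Of the 7 genes of the spindle checkpoint and the anaphase-promoting complex 0 passed in limma, while TTK and UBE2C reached an unadjusted p under 0.05. TTK, the kinase that starts checkpoint signalling at unattached kinetochores, stood at 10.1, 10.1 and 8.49 FPKM in shControl and at 15.5, 18.1 and 9.95 in shBLACAT3 libraries. Replicates 1 and 2 were above all controls and replicate 3 was between them (log2 fold change 0.52, SE 0.20, adjusted p 0.17). The other checkpoint genes lay closer to their controls. BUB1B, which encodes BubR1 of the inhibitor that binds CDC20, had a ratio of 1.17 and groups that did not overlap (adjusted p 0.27), MAD2L1, the checkpoint protein MAD2, had 1.10, and BUB1, a kinetochore kinase, had 0.97.

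UBE2C, the ubiquitin-conjugating enzyme that works with the anaphase-promoting complex, was the most abundant of the class. It stood at 116, 123 and 123 FPKM in shControl and at 98.6, 95.4 and 112 in shBLACAT3 libraries. The knockdown libraries were all below the controls, with a log2 fold change of -0.24 (SE 0.07) that did not pass (adjusted p 0.098). CDC20, the activator of the complex, and PTTG1 (securin), which it destroys to release the sister chromatids, had ratios of 0.97 and 0.93 and overlapping groups.

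The 5 centromere and kinetochore genes had a median log2 fold change of 0.42, and 0 of them passed in limma, with CENPF, NUF2 and NDC80 at an unadjusted p under 0.05. The median was 0.66 without shBLACAT3 replicate 3 and 0.26 without replicate 1, and in replicate 3 alone it lay 0.03 above the shControl mean. CENPF, a large coiled-coil protein of the outer kinetochore, had the largest difference of the 37. It stood at 16.9, 19.9 and 17.5 FPKM in shControl and at 34.3, 33.9 and 18.3 in shBLACAT3 libraries. Replicates 1 and 2 had a mean 1.89 times that of the controls and replicate 3 lay inside the control range (log2 fold change 0.59, SE 0.24, adjusted p 0.18). CENPE, a kinesin at the kinetochore that carries chromosomes to the spindle equator, did the same, with 6.29, 7.01 and 7.13 FPKM against 12.4, 11.3 and 5.94. Here replicate 3 was below all controls (adjusted p 0.32).

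NUF2 and NDC80 are partners in the complex that grips the microtubule end. NUF2 was at 18.5, 20.8 and 18.3 FPKM in shControl and at 27.0, 35.2 and 23.2 in shBLACAT3 libraries, with no overlap (log2 fold change 0.53, SE 0.15, adjusted p 0.081). NDC80 had no overlap either, with a mean ratio of 1.22 (adjusted p 0.12). CENPA, the histone variant that marks the centromere, was at 11.1, 12.4 and 12.004 against 11.1, 12.3 and 12.1 FPKM, a ratio of 0.9995 (adjusted p 0.998), with a sign that turned under median scaling.

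Among the 5 spindle motors 0 passed in limma, and 0 reached an unadjusted p under 0.05. KIF20B, a kinesin of late mitosis and cytokinesis, stood at 14.3, 14.8 and 15.3 FPKM in shControl and at 27.7, 26.5 and 13.9 in shBLACAT3 libraries. Replicates 1 and 2 were far above the controls and replicate 3 was below them (log2 fold change 0.53, SE 0.24, adjusted p 0.23). KIF11 (Eg5), which pushes the spindle poles apart, showed 36.6, 38.5 and 36.7 against 49.4, 53.6 and 37.2 FPKM, with replicate 3 again among the controls (adjusted p 0.21).

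KIF2C (MCAK), which takes microtubules apart at the kinetochore, was the most abundant motor. Its values were 44.6, 42.5 and 46.6 FPKM in shControl and 44.2, 42.9 and 41.5 in shBLACAT3 libraries. These groups overlapped, with a ratio of 0.96 (adjusted p 0.61). KIF20A and KIF23, kinesins of the central spindle, had ratios of 0.93 and 1.09 and overlapping groups.

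All 5 spindle assembly genes had a higher mean, and 0 passed in limma. DLGAP5, a microtubule-stabilising protein also called HURP, was the 1 member with an unadjusted p under 0.05. ASPM, which focuses microtubules at the spindle poles, was at 8.45, 10.3 and 8.41 FPKM in shControl and at 15.4, 17.2 and 8.21 in shBLACAT3 libraries. Replicate 3 was the lowest of the 6 libraries and replicates 1 and 2 the highest (log2 fold change 0.48, SE 0.25, adjusted p 0.28). DLGAP5 had 29.6, 31.7 and 29.5 against 38.2, 47.5 and 32.2 FPKM, without overlap (adjusted p 0.17). TPX2, the activator of AURKA and the most abundant of the 37 genes, had 117, 121 and 124 against 130, 128 and 125 FPKM. The TPX2 groups did not overlap, but the ratio was 1.06 (adjusted p 0.35). HMMR and NUSAP1, which bind spindle microtubules, had ratios of 1.18 and 1.14 and overlapping groups.

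The 3 cytokinesis and passenger complex genes had higher means and 0 passed in limma, with 0 at an unadjusted p under 0.05. ECT2, the exchange factor that activates RhoA at the cleavage plane, was at 30.5, 35.0 and 29.8 FPKM in shControl and at 40.9, 50.9 and 31.2 in shBLACAT3 libraries. Its replicate 3 lay among the controls (log2 fold change 0.34, SE 0.17, adjusted p 0.27). ANLN (anillin), a scaffold of the contractile ring, had a ratio of 1.13 and replicate 3 below all controls. BIRC5 (survivin), the passenger complex subunit, went the other way among the knockdown libraries, with 8.45, 9.52 and 12.8 FPKM beside 9.42, 9.23 and 9.42 in shControl, so that replicate 3 was the highest of the 6. Without that replicate its log2 fold change of 0.10 turned to -0.06.

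Of the last 3 genes 0 passed in limma, and 0 reached an unadjusted p under 0.05. TOP2A, the topoisomerase that untangles sister chromatids, was at 110, 119 and 102 FPKM in shControl and at 139, 154 and 103 in shBLACAT3 libraries, with replicate 3 among the controls (log2 fold change 0.24, SE 0.15, adjusted p 0.35). MKI67, the Ki-67 proliferation marker, had 28.95, 32.2 and 31.3 against 35.6, 37.1 and 32.2 FPKM, a ratio of 1.13 whose replicate 3 lay just above the highest control (adjusted p 0.20). FOXM1, the forkhead factor of this gene programme, had 33.5, 13.3 and 15.0 FPKM in shControl and 17.1, 38.1 and 24.6 in shBLACAT3 libraries. It spread by 2.52-fold within the controls and its difference did not pass (log2 fold change 0.40, SE 0.40, adjusted p 0.57).

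How many members passed depended on which libraries were kept, most of all on shBLACAT3 replicate 3. Without shBLACAT3 replicate 3, 14 of the 37 passed in limma, 13 higher and UBE2C lower, beside 13.3% of all tested genes (5.84% higher and 7.5% lower). The 13 were CDK1, PLK1, TTK, CENPE, CENPF, NUF2, NDC80, KIF11, KIF20B, ASPM, DLGAP5, ECT2 and TOP2A, with mean ratios from 1.28 for NDC80 to 1.89 for CENPF, and in 8 of them replicate 3 was not above all controls. By class they were 4 of 5 kinetochore genes, 2 of 5 motors, 2 of 5 spindle assembly genes, 2 of 9 cyclins and kinases, 1 of 7 checkpoint genes, 1 of 3 cytokinesis genes and 1 of the last 3. KIF20B then had a log2 fold change of 0.83 (SE 0.07, adjusted p 0.0026) and CENPF of 0.88 (SE 0.08, adjusted p 0.0046), where the adjusted p of both ran up to 0.46 and 0.37 over the alternatives. Without any 1 of the other libraries, PLK1 passed without shBLACAT3 replicate 2 and 0 members passed otherwise. The labels give no reason to set replicate 3 apart, so the values with all 6 libraries are the ones described above.

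**Figure D2:**
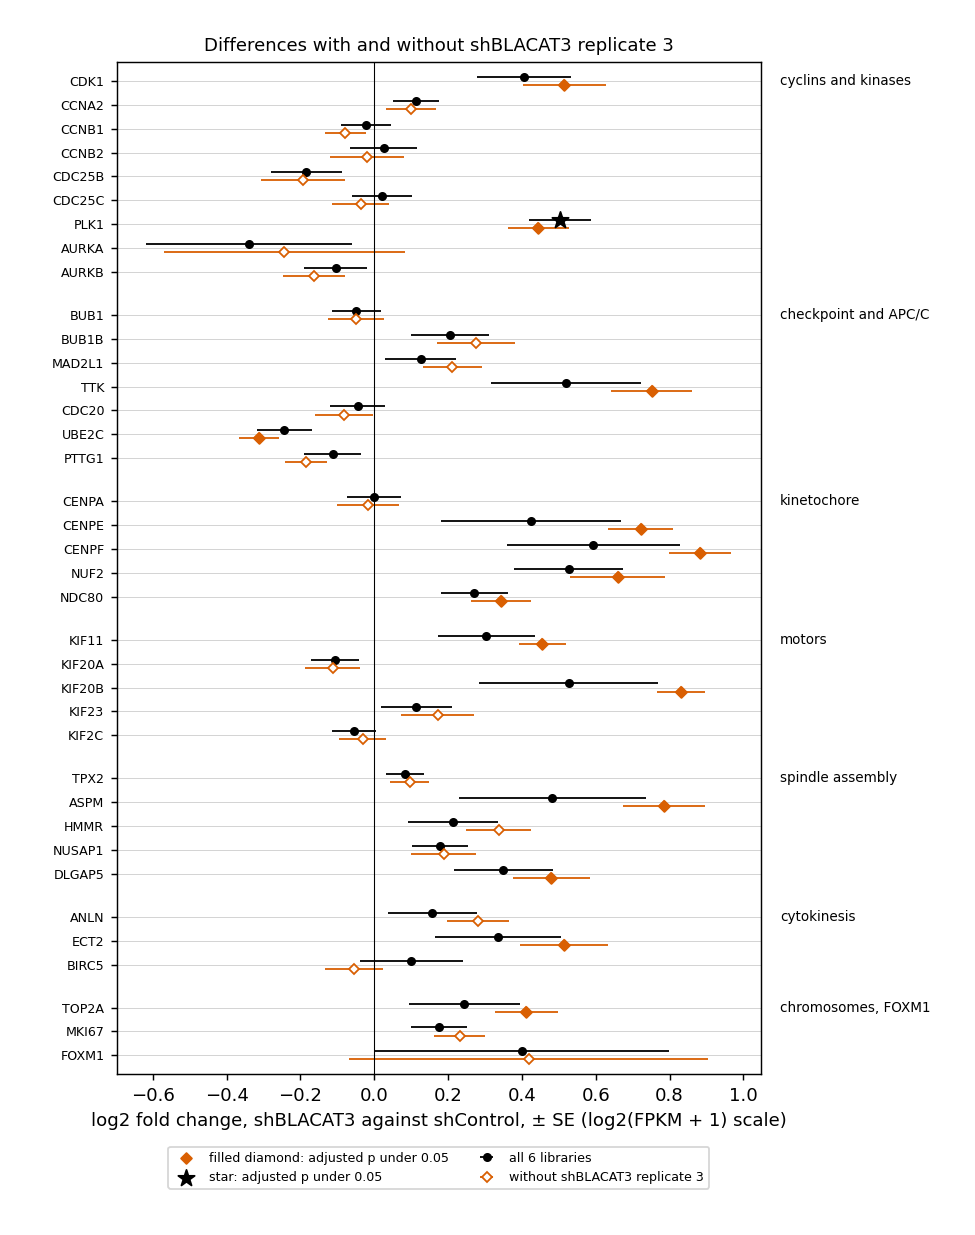
Log2 fold change of each gene, shBLACAT3 against shControl, with its standard error, from all 6 libraries (black) and without shBLACAT3 replicate 3 (orange). The star marks PLK1, the 1 gene past the threshold with all libraries, and filled diamonds the 14 past it without replicate 3.

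The spread among the knockdown libraries moved with transcript length. Over all tested genes, the mean log2 value of shBLACAT3 replicates 1 and 2 minus that of replicate 3 had a median of -0.15 for genes whose longest annotated coding transcript is under 1000 bases, and it increased in each longer range to 0.13 at 8000 bases and above. Among the members it was -0.21 for UBE2C (914 bases) and 0.89, 0.86 and 0.91 for CENPE (8612), CENPF (10307) and ASPM (10887). As a description across genes, which share the 6 libraries and are not replicates, the difference correlated with log10 length at r = 0.70 (rho 0.70, 37 members) and r = 0.28 (rho 0.33, 9941 tested genes). Members did not all follow length. MKI67, the longest at 12678 bases, differed by 0.17, while NUF2 (1969 bases) and TTK (3725) differed by 0.40 and 0.70. With the trend of each library with length removed, an alternative chosen after the data were seen, 1 member (PLK1) passed with all libraries beside 10.2% of tested genes. Without replicate 3 as well, 11 passed beside 12.6%, and UBE2C, NDC80 and ECT2 were no longer among them (adjusted p 0.071, 0.054 and 0.056). The log2 fold change of UBE2C went from -0.31 to -0.20 with the trend removed, that of NDC80 from 0.34 to 0.38 and that of ECT2 from 0.51 to 0.49.

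**Figure D3:**
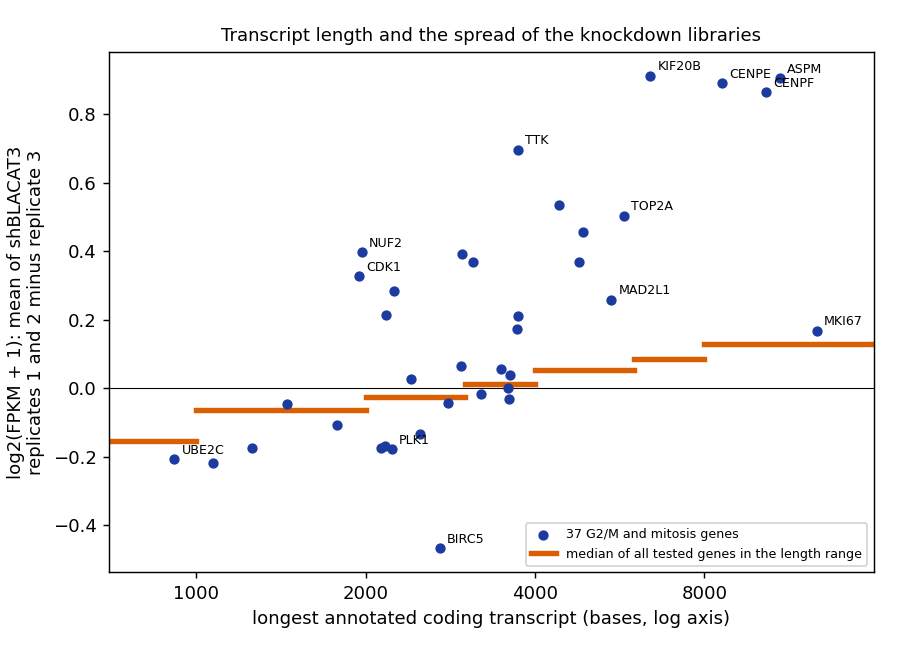
Each point is 1 of the 37 genes, by the length of its longest annotated coding transcript (log axis) and the mean log2(FPKM + 1) of shBLACAT3 replicates 1 and 2 minus replicate 3, and orange bars give the median of all tested genes per length range. KIF20B, CENPE, CENPF and ASPM lie near 0.9, far above the bars, and MKI67 close to its bar.

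Other genes of mitosis, from lists drawn up by function, gave 3 higher and 2 lower among 176 tested (2.84%, beside 9.37% of all tested genes), with a median log2 fold change of 0.11 and a higher mean in 126. Over the 176 the groups did not overlap in 41 higher and 17 lower, beside 14.1% and 18.6% of all tested genes. An unadjusted p under 0.05 was reached in limma by 42 of the 176, beside 25.6% of all tested genes. Among 32 centromere and kinetochore partners, 25 had a higher mean and the groups did not overlap in 15 higher and 1 lower, beside 14.1% and 18.6% of all tested genes. Their median log2 fold change was 0.22. CENPK, a subunit of the inner kinetochore, was the 1 that passed. It stood at 10.3, 12.8 and 9.69 FPKM in shControl and at 20.0, 22.5 and 15.3 in shBLACAT3 libraries, with all knockdown libraries above the controls (log2 fold change 0.76, SE 0.16, adjusted p 0.033). Its call was lost without shControl replicate 1 or 3 or shBLACAT3 replicate 1 or 2 (adjusted p 0.12, 0.11, 0.10 and 0.074).

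Of 18 condensin and cohesin genes, which shape chromosomes and hold sister chromatids together, 17 had a higher mean, with a median log2 fold change of 0.21. The median difference from the shControl mean was 0.30 and 0.38 in shBLACAT3 replicates 1 and 2 and 0.01 in replicate 3, and without replicate 2 the median log2 fold change was 0.12. The cohesin subunit SMC1A rose from 20.9 ± 0.47 to 28.6 ± 0.91 FPKM (SD, n = 3; log2 fold change 0.43, SE 0.06, adjusted p 0.006), and it passed under every alternative tried. In the anaphase-promoting complex (18 genes) CDC26, a small subunit, fell from 41.1 ± 1.36 to 29.7 ± 1.10 FPKM (log2 fold change -0.45, SE 0.06, adjusted p 0.0055), also under every alternative, while ANAPC15, which helps the complex to shed checkpoint proteins, rose with 0.35 (SE 0.08, adjusted p 0.046). The ANAPC15 call was lost without any 1 of the 6 libraries, under both scalings and with the replicate number added as a block (adjusted p up to 0.16). Among 19 genes of the MuvB, B-MYB, E2F and RB families E2F7, a repressor of the E2F programme, fell from 19.9 ± 1.36 to 14.1 ± 1.18 FPKM (adjusted p 0.019), a call lost without any 1 control or shBLACAT3 replicate 1 (0.058 to 0.077).

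In the other lists 0 genes passed in limma, beside 9.37% of all tested genes. At an unadjusted p under 0.05 stood 4 of 22 CDK1 regulators and kinases, 0 of 12 checkpoint partners and 2 of 8 kinesins. So did 6 of 30 spindle factors and 2 of 13 cytokinesis partners, beside 25.6% of all tested genes. The genes with the smallest p were the centrosomal kinase NEK2 (ratio 1.29, adjusted p 0.081) and NEK9 (0.82, 0.14), MAD2L1BP (0.90, 0.20), which takes MAD2 out of its checkpoint form, SGO2 (1.56, 0.20), a protector of centromeric cohesion, the kinesins KIF22 (1.22, 0.12) and KIF4A (1.17, 0.12), the centrosome protein CDK5RAP2 (1.27, 0.051), CKAP2L (1.58, 0.063), VPS4A (0.85, 0.081), which works in the final cut between daughter cells, and SEPTIN7 (1.63, 0.13). CDK5RAP2 passed under 4 alternatives, among them median scaling and quantile normalization (adjusted p 0.043 and 0.044). CKAP2L passed under median scaling (adjusted p 0.049), without shBLACAT3 replicate 3 (0.013) and under both fits with the length trend removed (0.046 and 0.016). NEK2, SGO2 and SEPTIN7 passed without shBLACAT3 replicate 3 (adjusted p 0.041, 0.0047 and 0.0064). They also passed with the length trend removed as well (0.038, 0.0056 and 0.0069). NEK2 passed too with all libraries and the replicate number added as a block (adjusted p 0.043 in limma). SGO2 repeated the split of the knockdown libraries, with 8.62, 8.83 and 4.67 FPKM beside 4.65 to 4.88 in shControl, and so did SEPTIN7, with 28.0, 30.8 and 16.8 beside 14.2 to 17.01. Without shBLACAT3 replicate 3, 29 of the 176 passed (16.5%), 25 higher and 4 lower, beside 13.3% of all tested genes (5.84% higher and 7.5% lower).

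Of 7 CDK inhibitors measured, 6 were tested, all 6 with a lower mean (median -0.28) and 0 past the threshold in limma. At an unadjusted p under 0.05 stood 4 of the 6, beside 25.6% of all tested genes. CDKN1A (p21), which blocks cyclin-dependent kinases, was at 53.1, 53.1 and 52.0 FPKM in shControl and at 39.3, 28.6 and 41.9 in shBLACAT3 libraries, without overlap (log2 fold change -0.53, SE 0.14, adjusted p 0.061, range over the alternatives 0.02 to 0.18). It passed when shBLACAT3 replicate 2 or 3 was left out (0.02 and 0.035). CDKN2D, an inhibitor of CDK4 and CDK6, had a ratio of 0.75 (adjusted p 0.089).

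Set beside the G2/M genes, 47 genes of G1/S and DNA replication had a similar median log2 fold change, 0.17, and a closer set of knockdown libraries. Their median difference from the shControl mean was 0.15, 0.17 and 0.17 in shBLACAT3 replicates 1, 2 and 3, and that of the 37 mitotic genes 0.11, 0.31 and 0.03. The groups did not overlap with shBLACAT3 higher in 22 of the 47 (beside 14.1% of tested genes) and in 9 of the 37, and 5 of the 47 rose (beside 2.57%), RFC4, TIMELESS, GINS2 and CLSPN with the largest changes. RFC4 rose with 0.53 (SE 0.06, adjusted p 0.0025) and TIMELESS with 0.50 (SE 0.09, adjusted p 0.02). RFC4 passed under every alternative tried, while TIMELESS, GINS2 and CLSPN lost their calls without shControl replicate 1 (adjusted p 0.076, 0.08 and 0.11), among other libraries. TIMELESS and CLSPN also lost them with the replicate number added as a block. The count of 5 calls was 1 without shControl replicate 1 or 2 and 2 without shControl replicate 3. It was 3 without shBLACAT3 replicate 1 or 2 and 6 (5 higher and 1 lower) without shBLACAT3 replicate 3. Over all tested genes the 938 calls became 357, 409 and 421 without shControl replicate 1, 2 or 3. Without shBLACAT3 replicate 1, 2 or 3 they became 568, 735 and 1339. The difference between these groups of genes was not tested.

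**Figure D4:**
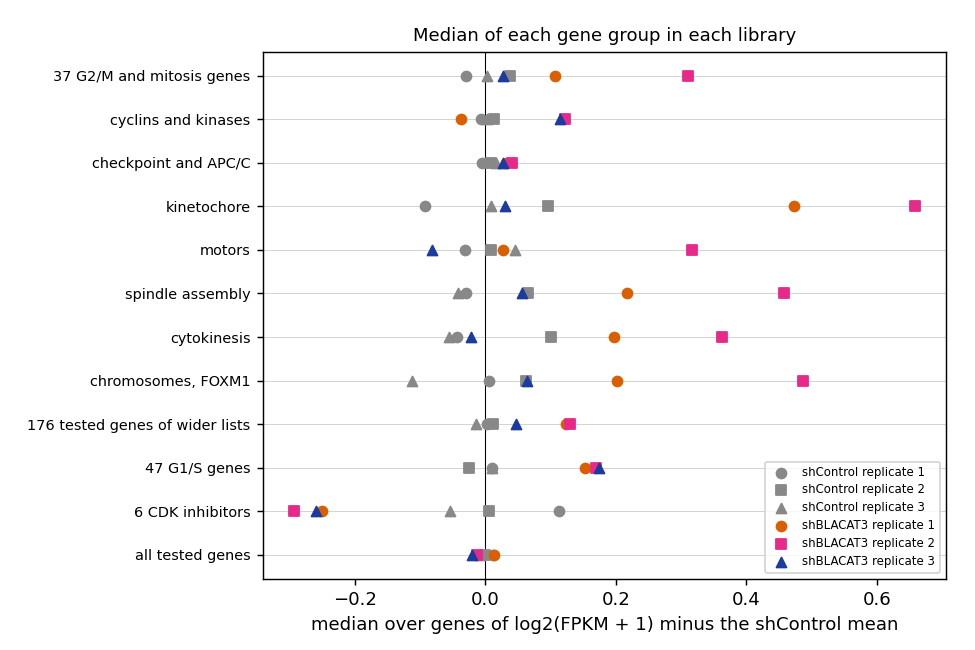
Median over the genes of each group of log2(FPKM + 1) minus the shControl mean, for each of the 6 libraries. The 3 knockdown points of the G1/S genes sit together between 0.15 and 0.17, those of the 37 G2/M and mitosis genes between 0.03 and 0.31, those of the CDK inhibitors between -0.29 and -0.25, and those of all tested genes near 0.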

How the data were processed

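The authors deposited 1 table with a value per gene and library. Its header names no unit, and FPKM was inferred from the numbers and from StringTie, listed with cutadapt and HISAT2 2.1.0 per the submitters' processing notes. The genome build, the annotation and the strand setting: not given in the sources used here. Columns headed NC were read as shControl and SH as shBLACAT3. Of 11081 rows 11007 matched a symbol, and rows of 2 symbols that several rows shared were summed. In every row the higher group mean was at least 0.5 FPKM.

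Genes whose mean reached 1 FPKM were compared between the groups in limma 3.58.1 (R 4.3.3), on the scale log2(FPKM + 1) (1 term for group, trended empirical Bayes, two-sided, Benjamini-Hochberg over all tested genes, threshold 0.05). The scale understates the change of low genes. Transcript lengths came from GENCODE 29 and promoters from RefSeq. The members and lists were chosen with earlier results of these data known. All members are named. Values in every library are given for the member of each class that passed, that with the largest change and the most abundant one. CDK1, AURKA, CDC25B and others given in full were chosen after their values were seen. From other lists the called genes (at most 4) or the 2 with the smallest p are named. On simulated data (10008 genes, 3 libraries in each group, 50 genes changed at each size), the limma step was tried. It called 4%, 46%, 82% and 92% of genes changed by 0.25, 0.5, 1 and 2 on the log2 scale, and 11 unchanged genes. The noise was drawn separately for each gene, without shifts shared by many genes such as those of shBLACAT3 replicate 3. These rates therefore need not hold for the real libraries. Figures were drawn with matplotlib 3.10.9.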

Additional observations from a re-analysis of the deposited data

How the results depend on the processing

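Over 14 alternatives, 17 of the 37 members kept their direction and their side of the threshold throughout, and 6 turned in sign at least once. The count over all genes, 938, was 612 with the replicate block and 357 to 1339 when 1 library was left out. The count of members, 1, was 0 with the replicate block, 0 to 14 when 1 library was left out, and 11 with the length trend removed and without shBLACAT3 replicate 3. The count in the wider lists, 5, was 2 to 29 when 1 library was left out, 9 with the length trend removed, and 24 with it removed and without shBLACAT3 replicate 3. The median log2 fold change of the members, 0.16, was 0.091 without shBLACAT3 replicate 2 and 0.21 without replicate 3, the lowest and the highest over the 14. For both length settings, chosen after the data were seen, and for the other alternatives the cause of these changes was not tested.

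The signs that turned belonged to genes close to 0. CCNB1 had a log2 fold change of 0.037 under quantile normalization, 0.0053 with the length trend removed and -0.078 to 0.032 without 1 library. CENPA had 0.0056 under median scaling, 0.044 with the length trend removed, 0.052 with it removed and without shBLACAT3 replicate 3, and -0.043 to 0.041 without 1 library. Without 1 library the log2 fold change ran from -0.023 to 0.12 in CCNB2, from -0.037 to 0.065 in CDC25C, from -0.083 to 0.029 in CDC20 and from -0.055 to 0.22 in BIRC5, which had -0.038 with the length trend removed and without shBLACAT3 replicate 3.

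The replicate numbers are shared by the groups, but nothing says that they pair the libraries. Same-numbered libraries had correlations of their deviations from the group means of 0.10, 0.12 and 0.09, and each library correlated best with its own number. The main fit did not treat the libraries as pairs, because the labels do not say that the numbers pair them. The limit set for the pairing check was 0.1, and the third correlation fell just under it. Missing this limit does not show that the libraries are unpaired. With the replicate block PLK1, ANAPC15, TIMELESS and CLSPN no longer passed in limma (adjusted p 0.051, 0.074, 0.065 and 0.058) and NEK2 did (0.043), and it changed no other call among the genes named.

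FPKM values hold no counts, so the depth, and with it the counting error of the lower genes, is unknown.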
